A study of Arabidopsis thaliana with 4 samples.

Results

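The genes of 10 enzymes of plastid isoprenoid and carotenoid synthesis were examined for binding of phytochrome A (phyA), the far-red light receptor, in Arabidopsis thaliana. Binding was measured by ChIP-seq, in which chromatin fragments held by a protein are precipitated and sequenced. They are DXS, DXR, PSY, PDS, ZDS, LYCB, LYCE, BCH1, VDE and ZEP, 10 of 27444 protein-coding genes of the nuclear chromosomes. They were chosen by locus identifier for their place in the pathway. For each gene, every peak that overlapped the gene or the 1000 bp outside either end (the window) by at least 1 bp was taken from the peak list of each replicate. The 3 ChIP samples, called biologically distinct in the series text, and 1 input sample were all etiolated seedlings aged 4 days that had received 3 h of far-red light. They carried a phyA-GFP fusion behind the PHYA promoter in the phyA201 mutant, so the precipitated protein is the fusion. Chromatin of whole seedlings, 5 g in the protocol, was precipitated with an anti-GFP antibody. Every sample shared this genotype and light treatment, and the input sample was not analysed here. The results therefore describe where peaks were called and compare no conditions.

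Carotenoids are built in plastids from the precursors of the methylerythritol phosphate (MEP) pathway. Phytoene synthase joins a pair of geranylgeranyl diphosphate molecules, desaturases and isomerases turn the product into lycopene, and cyclases and hydroxylases lead on to lutein and zeaxanthin. Carotenoids harvest light and quench excess energy beside chlorophyll, and abscisic acid is made from them. Light acting through phytochromes raises carotenoid synthesis when a dark-grown seedling turns green, and PIF1, a phytochrome-interacting transcription factor, is known to repress PSY in darkness.

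In replicates 1, 2 and 3, 12, 11 and 6 peaks lay in the windows of the 10 genes, out of 7084, 7534 and 6037 peaks called. The list of replicate 3 was the shortest, and its peaks held 4951883 reads against 11110782 and 7702516 in replicates 1 and 2. Sequencing depth beyond the reads inside peaks is unknown. No test was made of any count below, because the genes were chosen with results of these data known.

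Peaks of every replicate were found at 4 of the 10 genes, DXS, PSY, ZDS and VDE, against 18.8% of all protein-coding genes counted in the same way. LYCE and BCH1 had peaks in replicates 1 and 2 only, and 13.3% of all protein-coding genes had peaks of just a pair of replicates. DXR had a peak in replicate 3 only, PDS in replicate 2 only and ZEP in replicate 1 only. Peaks in just 1 replicate were present at 16% of all protein-coding genes. LYCB had none, as did 51.9% of all protein-coding genes. Peaks of at least 2 replicates were thus present at 6 of the 10 genes, against 32.1% of all. At least 1 peak was present at 7, 7 and 5 genes in replicates 1, 2 and 3, where the share of all protein-coding genes was 35.3, 35.7 and 28.1%. The 10 genes were long, with a median of 3394.5 bp against 2078 bp for all protein-coding genes, which makes their windows longer too, and the part of length in the count was not tested.

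**Figure D1:**
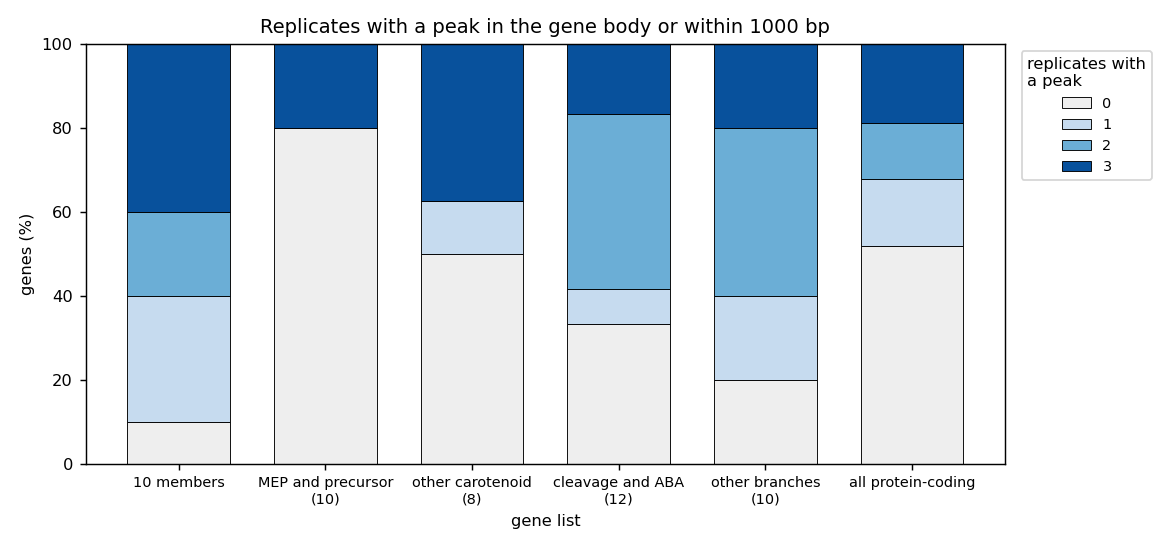
Share of genes (%) by the number of replicates, from 0 to 3, with a peak in the gene body or within 1000 bp, for the 10 genes, 4 lists of related genes (number of genes in brackets) and all protein-coding genes. Peaks of every replicate were present at 4 of the 10 genes and at 18.8% of all protein-coding genes.

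Among the 10 genes, a peak in every replicate did not always mean a common site. Peaks joined into 1 region by overlap in all 3 replicates at DXS and PSY only, 2 of the 10 genes against 17.6% of all protein-coding genes. Of the 5160 protein-coding genes with peaks of every replicate, 4836 had them joined in this way. A summit of every replicate lay inside the window at 1 gene, DXS, against 14.3% of all. With the strongest peak of each replicate taken, the 3 summits lay within 200 bp of each other at DXS alone, against 8.79% of all genes. When the closest summits were taken in place of the strongest, PSY was added, giving 2 genes against 11.1% of all. The fold enrichments that follow are the authors' deposited ratios per peak, and each list has its own scale. An SD over the 3 lists therefore holds differences between lists as well as between samples.

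DXS (AT4G15560, listed as CLA1 in the gene table) encodes the synthase that opens the MEP pathway. Its main region lay on chromosome 4 from 8886224 to 8888082 (TAIR10), across the end of the gene with the higher coordinate. The fold enrichment there was 3.99, 4.71 and 3.38 in replicates 1, 2 and 3, a mean of 4.03 ± 0.67 (SD, n = 3). The summits lay 35 bp outside the gene end in replicate 1 and 9 and 57 bp inside it in replicates 2 and 3, a spread of 92 bp. The peaks held 1450, 1243 and 489 reads, lowest in replicate 3. Within the lists the peak was ordinary in replicates 1 and 3, at percentiles of fold enrichment of 33.7 and 35.8, and high in replicate 2 at 81.4. At the other end of DXS, replicates 1 and 2 had a further peak with fold enrichments of 3.85 and 3.72 and summits 83 and 14 bp outside the gene, and replicate 3 had none. None of the DXS peaks touched another protein-coding gene.

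DXR (AT5G62790) encodes the reductoisomerase that follows DXS and commits carbon to the pathway. Only replicate 3 had a peak in its window, with a fold enrichment of 2.99, where the weakest peaks of any list had 2.95. Its summit lay inside the gene, 148 bp from the high-coordinate end. The nearest peaks of replicates 1 and 2 began 16265 and 1858 bp from the gene.

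PSY (AT5G17230) encodes phytoene synthase, the entry enzyme of carotenoid synthesis, and had the most peaks of the 10 genes, with 3 in replicate 1 and 2 each in replicates 2 and 3. The strongest site common to the replicates lay beyond the high-coordinate end, on chromosome 5 from 5663784 to 5664916. Its fold enrichment was 6.40, 4.12 and 4.43 in replicates 1, 2 and 3 (4.98 ± 1.24, SD, n = 3), highest in replicate 1, and the percentiles were 94.6, 62.5 and 86.1. The summits stood 1383, 1357 and 1449 bp outside the gene, within 92 bp of each other. They therefore lay outside the window, which only the near edges of these peaks entered, 787, 933 and 936 bp from the gene. The peaks touched no protein-coding gene, and PSY was the nearest one to each of these summits.

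At the low-coordinate end of PSY the peaks of the 3 replicates joined into a broad region of 5032 bp, on chromosome 5 from 5657121 to 5662152. The fold enrichment was 4.27, 4.40 and 2.99 (3.89 ± 0.78, SD, n = 3). Here the summits did not coincide: they stood 407, 36 and 1451 bp outside the gene in replicates 1, 2 and 3, a spread of 1415 bp. The end of PSY overlaps that of GSTF12 (AT5G17220), a glutathione transferase gene needed for anthocyanin accumulation, and the summits of replicates 1 and 2 fell inside GSTF12. That of replicate 3 fell inside the next gene, AT5G17210. The peaks of the low end thus cannot be assigned to PSY alone. Replicate 1 had one more peak at PSY, with a fold enrichment of 5.22 and a summit inside the gene, 143 bp from the high-coordinate end, which had no counterpart in replicates 2 and 3.

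PDS (AT4G14210, listed as PDS3) and ZDS (AT3G04870) encode the desaturases that act on phytoene and zeta-carotene. At PDS, replicate 2 alone had a peak, with a fold enrichment of 3.80. Its summit stood 404 bp outside PDS and 157 bp from RHF1A, a ubiquitin ligase gene. The nearest peaks of replicates 1 and 3 were 7552 and 6525 bp away.

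ZDS counted as having a peak in every replicate, but no peak touched the gene and no single place held all 3 within the window. Strongest fold enrichments were 4.95, 3.31 and 3.39 in replicates 1, 2 and 3 (3.88 ± 0.92, SD, n = 3). Beyond the high-coordinate end, replicates 1 and 2 had peaks whose summits stood 1099 and 938 bp from ZDS. Both peaks overlapped DRT102 (AT3G04880) and AT3G04890. The summit of replicate 1 was 73 bp from AT3G04890, and that of replicate 2 fell inside DRT102. Beyond the low-coordinate end, replicates 1 and 3 had peaks with fold enrichments of 4.65 and 3.39 and summits 1418 and 1384 bp from ZDS. Both peaks overlapped AT3G04860, which was nearer to their summits, at 414 and 448 bp. ZDS was thus the nearest protein-coding gene to no summit of the peaks in its window. Replicate 2 also had a peak on the low-coordinate side, but its edge stopped 1016 bp from ZDS, just outside the window, whereas that of replicate 1 reached to 986 bp. That peak overlapped those of replicates 1 and 3, and the 3 summits were spread over 439 bp.

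The lycopene cyclases act where the paths to beta-carotene and lutein part. LYCB (AT3G10230, listed as LYC) had no peak, and the nearest ones of replicates 1, 2 and 3 were 6598, 6205 and 21430 bp from the gene. LYCE (AT5G57030, listed as LUT2), which leads to lutein, had peaks of 4.11 and 3.31 in replicates 1 and 2, on chromosome 5 from 23076107 to 23077597. The summits lay 13 bp outside and 92 bp inside the low-coordinate end, 105 bp apart. This end overlaps NMT1 (AT5G57020), a gene of protein N-myristoylation, and the summit of replicate 1 fell inside NMT1. In replicate 3 the nearest peak was 1740 bp away.

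BCH1 (AT4G25700, listed as BETA-OHASE 1) encodes a beta-carotene hydroxylase. Replicates 1 and 2 had a joint region beyond its high-coordinate end, on chromosome 4 from 13096436 to 13098597, with fold enrichments of 4.25 and 3.62. Its summits stood 797 and 886 bp from BCH1, 89 bp apart, and AT4G25707 was nearer to both. The peak of replicate 1 also reached AT4G25710. A weaker peak of 3.20 in replicate 2 had its summit 14 bp inside that end of BCH1. The nearest peak of replicate 3 was 12409 bp away.

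VDE (AT1G08550, listed as NPQ1) and ZEP (AT5G67030, listed as ABA1) run the xanthophyll cycle in opposite directions: de-epoxidase activity forms zeaxanthin in strong light, and the epoxidase returns it to violaxanthin. At VDE the strongest fold enrichments were 6.42, 4.43 and 3.12 in replicates 1, 2 and 3 (4.66 ± 1.66, SD, n = 3), the widest spread of the 4 genes with peaks in every replicate. The values came from different places. Replicates 1 and 2 had a region on chromosome 1 from 2710018 to 2711677, with summits 1238 and 1217 bp beyond the high-coordinate end of VDE. Those summits stood 226 and 205 bp from SYP111, the syntaxin gene of cytokinesis, which overlaps this end of VDE. The peak of replicate 1 was the highest of all 29, at percentile 94.7 of its list.

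At the low-coordinate end of VDE, replicates 2 and 3 had weak peaks of 3.14 and 3.12, at percentiles 10.1 and 14.9. Their summits lay 81 bp outside and 111 bp inside VDE. Just beyond this end begins SIG2 (AT1G08540), which encodes a sigma factor of plastid transcription, and the summit of replicate 2 was inside it. ZEP had a peak at each end in replicate 1 only, with fold enrichments of 2.98 and 3.72. Their summits lay 398 and 31 bp inside the gene, and the second peak also reached AT5G67040. The nearest peaks of replicates 2 and 3 were 4408 and 3458 bp away.

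**Figure D2:**
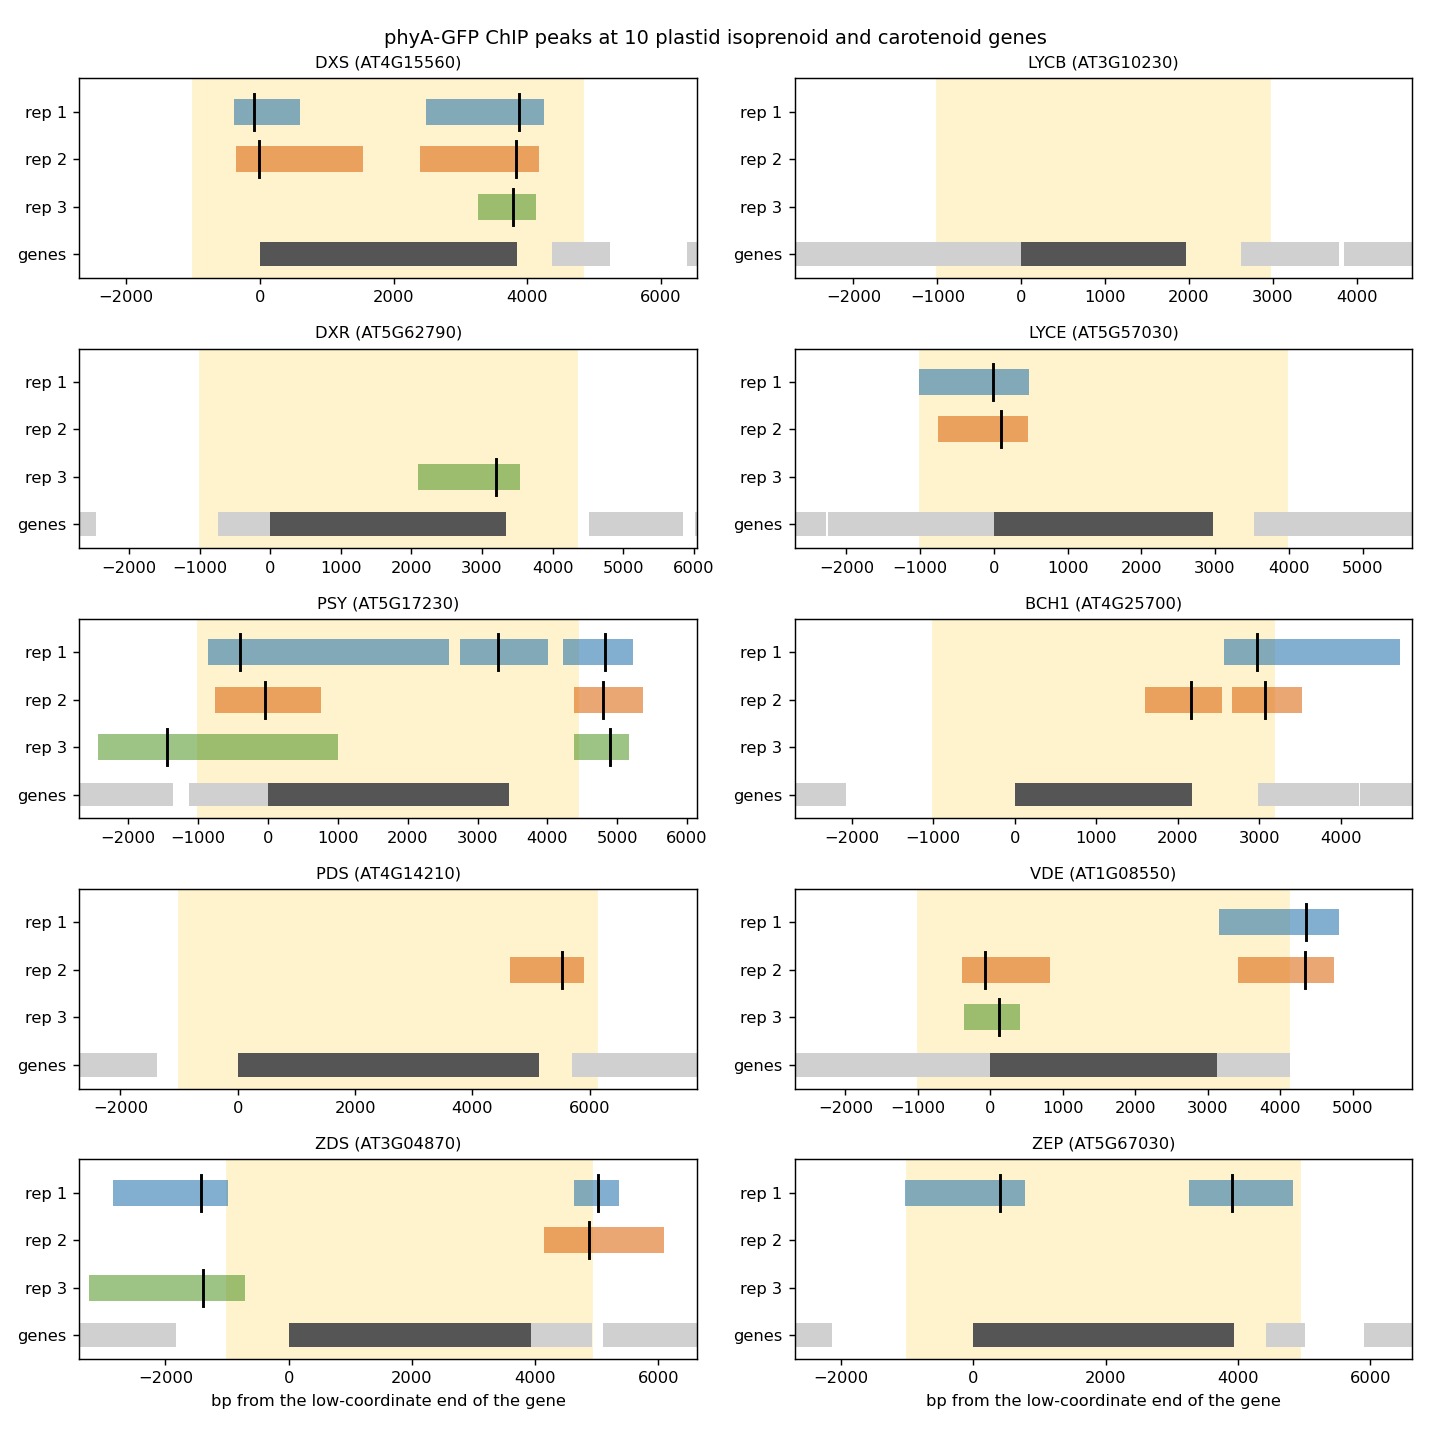
Peaks of replicates 1, 2 and 3 that reach into the windows (coloured bars, with the summit as a black line) by distance in bp from the low-coordinate end of each of the 10 genes. The gene is dark grey, neighbouring protein-coding genes light grey and the window shaded. Bars of all 3 replicates line up at the high end of DXS and beyond the high end of PSY, and LYCB has none.

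The peaks of the 10 genes were near the lists they came from in strength, but with a lower median in every replicate. In replicates 1, 2 and 3 their median fold enrichment was 4.26, 3.72 and 3.25, against 4.38, 3.85 and 3.58 for all peaks of each list. Of the 12, 11 and 6 peaks, 5, 4 and 1 lay above the median of their list and 2, 0 and 0 above its percentile 90. The values ran from 2.98 to 6.42, while the highest peaks of the lists had 28.1, 34.9 and 24.9. Over the 4 genes with peaks in every replicate the median of the mean fold enrichment was 4.34, and over all protein-coding genes with such peaks it was 4.34. By this mean PSY stood at 5.08 ± 1.15 (SD, n = 3), above VDE, DXS and ZDS, and each neighbour in that order differed by less than the SD between lists. The mean of PSY joins values of different places, since the strongest peak of replicate 2 was the one at the low end and those of replicates 1 and 3 lay beyond the high end. The means of VDE and ZDS do so too, with strongest summits spread over 4247 and 6415 bp, against 92 bp at DXS. The order also changed with the processing: taking the peak of most reads put PSY at 3.89, below DXS at 4.03, and leaving out replicate 1 put VDE at 3.775, below DXS at 4.045.

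**Figure D3:**
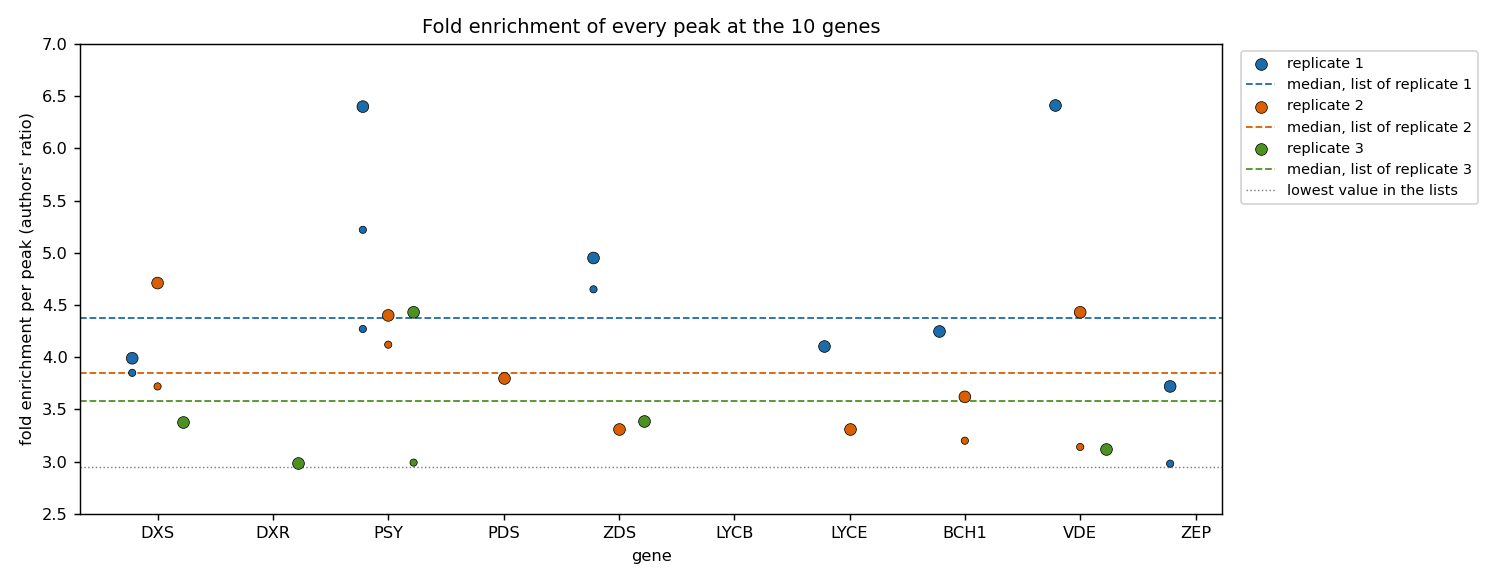
The authors' deposited fold enrichment (a ratio) of all 29 peaks by gene and replicate, with the strongest peak of a gene in each replicate as a large point. Dashed lines are the medians of the lists (4.38, 3.85 and 3.58), and the highest points are VDE and PSY in replicate 1 at 6.42 and 6.40.

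Length and read number were likewise near those of the lists. Median peak length was 1611, 1254 and 1156 bp, against 1477, 1168 and 1117 bp for all peaks of replicates 1, 2 and 3. The median number of reads was 1359, 913 and 684.5, against 1292, 846 and 689. Per kb of peak, the medians were 822, 648 and 566 reads, against 865, 710 and 600.0 reads.

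Summits gathered at gene ends, though often at those of a neighbour. Of the 29 summits, 26 were no more than 500 bp from an end of some protein-coding gene, against 68.9% of the 20655 summits in the lists. The windows are built around gene ends, so nearness to one is partly set by how the peaks were chosen. The summit fell inside the gene itself for 9 peaks, inside another protein-coding gene for 7 and in none for 13. For 14 of the 29, a protein-coding gene other than the one of the pathway was nearest, and 17 peaks overlapped such a gene. Summits stood nearer to the high-coordinate end for 17 peaks and to the low-coordinate end for 12. The gene table gives no strand, so promoters and downstream ends were not told apart.

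The 29 peaks formed 16 regions, 3 with peaks of all replicates, 7 with peaks of a pair and 6 with a peak of 1 replicate. In the 7 regions of a pair the summits lay 21 to 192 bp apart. The low-end region of ZDS is among them only because the peak of replicate 2, described above, stopped short of the window. Replicates 1 and 2 made up 5 of those pairs, replicates 1 and 3 gave 1 and replicates 2 and 3 gave 1.

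The rest of the pathway was read from 4 lists of 40 genes in all, chosen by role. Peaks of every replicate were found at 9 of the 40 genes, against 18.8% of all protein-coding genes. They joined into 1 region at 8 of the 40, against 17.6% of all. In the list of MEP pathway and precursor genes, 2 of 10 had such peaks and 8 had no peak in any replicate, against 51.9% of all protein-coding genes without one. The first was HDR, of the last MEP step, with fold enrichments of 3.72, 3.19 and 3.31 (3.41 ± 0.28, SD, n = 3). Its summits were spread over 530 bp in a region that also overlaps AT4G34360, at 724, 194 and 704 bp from HDR. AT4G34360 was nearer in replicates 1 and 3, at 48 and 68 bp, so the values cannot be assigned to HDR alone. The other was GGPPS11, which makes the geranylgeranyl diphosphate used by phytoene synthase, with 4.92, 4.88 and 3.60 (4.47 ± 0.75). Its summits were spread over 435 bp in a region shared with RCE1. That of replicate 1 stood 29 bp outside GGPPS11, its nearest gene. Those of replicates 2 and 3 fell inside RCE1, 422 and 464 bp outside GGPPS11, so the values cannot be assigned to GGPPS11 alone. Of the genes of the intermediate MEP steps between DXS and HDR, ISPD, CDPMEK, ISPF and HDS had no peak, as did 51.9% of all protein-coding genes. DXR, also between them, had a peak in replicate 3 only.

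Among 8 further carotenoid genes, 3 had peaks of every replicate and 4 had none, where the shares of all protein-coding genes were 18.8 and 51.9%. BCH2, the relative of BCH1, had fold enrichments of 4.01, 4.37 and 3.16 (3.85 ± 0.62, SD, n = 3), with summits 118, 169 and 226 bp outside its high-coordinate end. That region touched no other protein-coding gene, whereas a further peak of replicate 1 at the other end, of 3.47, also overlapped USP. BCH1 and BCH2 are related copies, and whether the alignment split reads between them was not tested. ABA4, of neoxanthin synthesis, had the highest values, 6.40, 4.99 and 5.15 (5.51 ± 0.77), at percentiles 94.6, 87.3 and 96.0. These peaks formed a region on chromosome 1 from 25046771 to 25050693 and all overlapped RBCS1A, a gene of the Rubisco small subunit. Those of replicates 1 and 2 overlapped ABA4 as well, while that of replicate 3 stopped 45 bp short of it, so the values cannot be assigned to ABA4 alone. Its summits stood 577, 393 and 498 bp from ABA4, with RBCS1A nearer in replicate 1. At the other end of ABA4, weaker peaks of replicates 1 and 2, of 4.96 and 3.36, also overlapped DIN9, which was nearer to both summits. PTOX, the plastid terminal oxidase gene, had strongest peaks of 3.89, 4.17 and 3.45 (3.84 ± 0.36), but those of replicates 1 and 2 had their summits at AT4G22240 and AT4G22250. A second peak of replicate 1, of 3.40 with its summit 82 bp inside PTOX, joined that of replicate 3, and replicate 2 had no peak there.

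In the list of carotenoid cleavage and abscisic acid synthesis, 2 of 12 genes had peaks of every replicate, against 18.8% of all protein-coding genes. NCED3, whose product cleaves epoxycarotenoids in abscisic acid synthesis, had 3.95, 4.30 and 2.99 (3.75 ± 0.68, SD, n = 3), with all 3 summits inside the gene and 297 bp apart at most. ABA2, of a later step, had 4.30, 3.34 and 3.17 (3.60 ± 0.61), and its summits were spread over 2644 bp at both ends of the gene. ABA2 was the nearest gene to none of them. The summits of replicates 1 and 2 lay inside AT1G52330, and that of replicate 3 was nearest AT1G52342. The peaks of replicates 1 and 3 also overlapped AT1G52342, and that of replicate 3 AT1G52343. A further 5 of the 12 genes had peaks of just a pair of replicates, against 13.3% of all protein-coding genes. In the list of other branches from geranylgeranyl diphosphate, 2 of 10 had peaks of every replicate and 4 had peaks of just a pair. The shares of all protein-coding genes were 18.8 and 13.3%. HPT1, of tocopherol synthesis, had 4.31, 4.76 and 4.17 (4.41 ± 0.31) beyond its high-coordinate end, with summits at 933, 1085 and 1019 bp from the gene. GA1, of gibberellin synthesis, had 4.06, 3.06 and 3.68 (3.60 ± 0.50), and its summits inside the gene lay within 18 bp of each other, the closest among the regions of these lists that joined all 3 replicates. The median of the mean fold enrichment over the 9 genes was 3.84, against 4.34 over the protein-coding genes with peaks of every replicate.

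**Figure D4:**
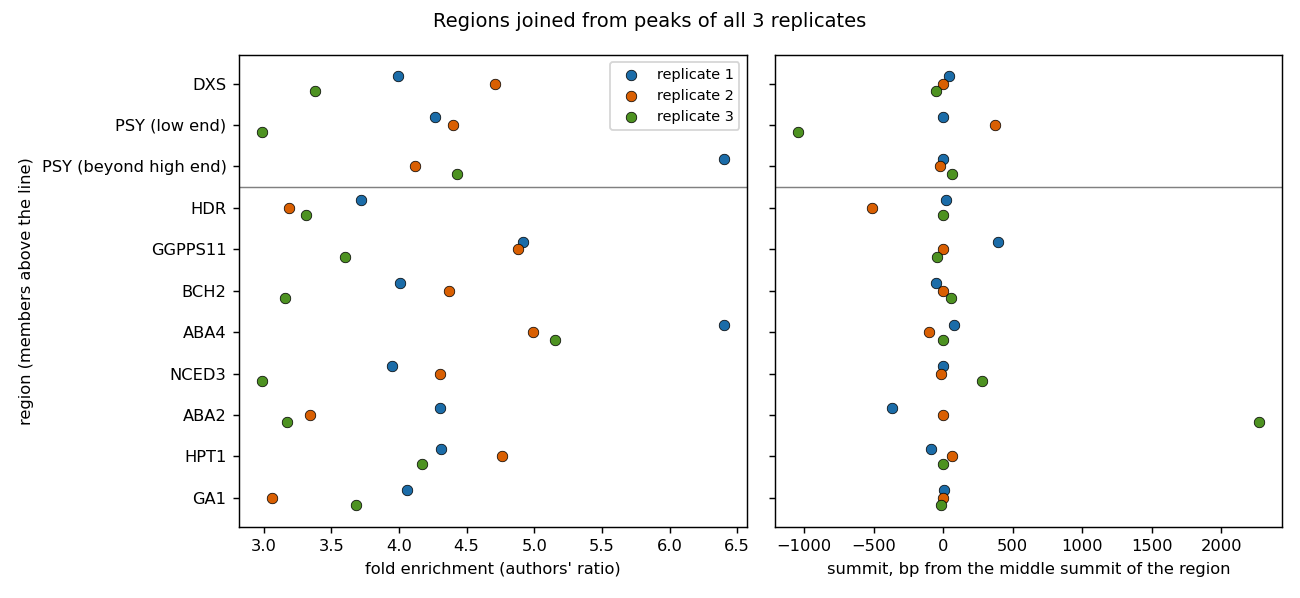
Regions joined from peaks of all 3 replicates at the 10 genes (above the line) and the 4 related lists (below it). The left panel gives the authors' deposited fold enrichment (a ratio) and the right panel the distance in bp of each summit from the middle one. Summits lie together at DXS, beyond the high end of PSY and at GA1 (spreads of 92, 92 and 18 bp) and apart at the low end of PSY and at ABA2 (1415 and 2644 bp).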

How the data were processed

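ChIP-seq peak lists of 3 phyA-GFP samples were analysed. The submitters' processing notes name Bowtie and the build TAIR10. Which peak caller was run, and with what filters, is not given in the sources used here. The deposited lists have 9 unnamed columns, read from their values and order. Length equalled end minus start plus 1 in every line. The authors' deposited counts of reads in each peak are raw. The deposited score per peak was not used. Fold enrichment, as deposited, is a ratio on a linear scale, taken to be signal at the summit over local background. The deposited false discovery rate is in percent and reached at most 4.99. The summit is start plus column 5.

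Genes came from the RefSeq table of assembly TAIR10.1, which gives no strand, and its nuclear coordinates were taken as those of TAIR10. As a check, summits of replicate 1 were moved by 5000 bp, and 62.4% then fell in protein-coding genes, against 35.1% unmoved. All 50 list genes matched by locus. Overlaps were counted in Python 3.11.15 with numpy 2.4.6 and pandas 2.3.3, and checked on simulated peaks. The genes and lists were chosen with earlier results of these data known, so no test was run. All 10 genes are named, with the neighbours their peaks overlap or lie nearer to, and so are the genes of the related lists with peaks of every replicate. ISPD, CDPMEK, ISPF and HDS were named after their values were seen. Alternatives were other windows, thresholds, overlaps and replicates left out. Promoter ends, motifs and sequences were not analysed here.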

Additional observations from a re-analysis of the deposited data

How the results depend on the processing

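Counts of genes with a peak of every replicate depended on the peak threshold. With a false discovery rate of at most 1%, the count fell to 0 of the 10 genes, against 4 as reported, to 1 of the 40 related genes, against 9, and to 1312 of all protein-coding genes, against 5160. With a fold enrichment of at least 4 the counts were 1 (PSY), 2 and 1345. The 4 genes became 2 (DXS and PSY) with the gene body only or when peaks had to join into 1 region, a setting added after seeing the data, and 1 (DXS) with the summit required in the window. With these settings, in that order, the count of all protein-coding genes fell from 5160 to 3682, 4836 and 3926. Peaks of at least 2 replicates gave 18 related genes and 8823 of all genes. With at least 50% of the peak inside the window, 5 related genes and 3844 of all genes were counted. The 1 gene with a summit of every replicate in the window became 0 with the gene body only and with either stricter threshold, 4 with flanks of 2000 bp and 5 with at least 2 replicates. The 1 gene with coinciding summits became 2 with the closest summits and 0 with a false discovery rate of at most 1%. Leaving out each replicate in turn gave 4 to 6 of the 10 genes, 10 to 16 related genes and 5867 to 7350 of all protein-coding genes. It also gave 1 to 4 genes with summits in the window and 1 to 5 with coinciding summits. The highest of these came without replicate 3, where ZDS, LYCE, BCH1 and VDE joined DXS in the last count. The cause was not tested. Of 65 values under an alternative, 41 stayed within 1.5 times the reported count or, for the median fold enrichment, within 1 SD. All values of that median did so, and they ranged from 3.91 to 4.47 with a replicate left out. The SD used was the median of the SDs between lists of the 4 genes, 1.04, which also holds differences between lists and places. The genes behind the median changed too, to DXS and PSY with the gene body only and to DXS alone with the summit required in the window. The mean fold enrichment of PSY was 3.89 with the peak of most reads in place of 5.08. The result on 5′ ends and the motif counts were not run, since no strand or sequence was used here. No paired analysis was possible because the replicates form 1 group and nothing was compared by a test.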

Other observations

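Some regions lay just beyond the 1000 bp windows. Past SYP111 on the high-coordinate side of VDE, all 3 replicates had a peak whose near edge was 1789, 1885 and 1790 bp from VDE, with fold enrichments of 5.33, 3.78 and 4.12 in replicates 1, 2 and 3. Their summits stood 2173, 2415 and 2137 bp from VDE. On the low-coordinate side of BCH1, replicates 1 and 2 had peaks of 4.85 and 4.63, higher than those inside its window, with summits at 13091871 and 13091873 on chromosome 4, and replicate 3 had none within 2000 bp. On the same side of DXR, replicates 2 and 3 had peaks of 3.28 and 3.76, whose near edges were 1858 and 1699 bp from the gene. These values were looked up after the window counts had been seen.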
